A study of Mus musculus with 5 samples.

Results

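Expression of 40 genes of glycolysis and of the hypoxia response was compared between 5 cell lines made from Neuro2A, a line of mouse neuroblastoma, each run on 1 Affymetrix array. The genes were taken from a fixed list of names, and every probe set that the platform annotation assigns to exactly 1 of those names was used. That gave 82 of 45037 probe sets and 36 of the 40 genes. No such probe set was found for Gpi1 and Eno1, and Gapdh and Bnip3l are covered by probe sets with several gene names only. The expression of these 4 genes was therefore not analysed here. A probe set is a group of short probes against 1 stretch of a transcript, and its signal has arbitrary units that cannot be compared between probe sets.

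The tested lines were 2 stable knockdowns of KDM7, a histone demethylase encoded by Kdm7a, called KDM7 knockdown line 1 and line 2 here because they carry different vectors. The control lines were Neuro2A with a vector for EGFP knockdown, Neuro2A with an empty vector, and parental Neuro2A with no vector. All 5 share the same parental cells and a standard culture condition, no treatment, oxygen level or time is given, and the labels do not say whether a line is 1 clone or a pool. The study's design asks what loss of KDM7 does to gene expression. Each line was measured once, so the spread within a group holds differences between lines and vectors, and p-values measure only the spread between these arrays.

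Glycolysis splits glucose into pyruvate in the cytosol, and lactate dehydrogenase with monocarboxylate transporters lets a cell dispose of the pyruvate as lactate. When oxygen is short, the prolyl hydroxylases that normally mark the alpha subunits of hypoxia-inducible factor (HIF) for destruction lose activity. HIF then pairs with Arnt and activates genes that carry the hypoxia response element, many glycolytic genes among them. Neuroblastoma cells, like many tumour cells, run glycolysis at a high rate also in normal oxygen.

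Signals were compared on the log2 scale with limma, a linear model whose error borrows strength across probe sets, with p-values adjusted by Benjamini-Hochberg over all 22519 probe sets bright enough to test, and a difference was called at an adjusted p under 0.05. The brightness filter required a mean log2 signal at or above the median probe set, which is a signal of 40.5. It kept 58 of the 82 probe sets, from 31 genes, and 24 probe sets stayed under it. Where a gene had several tested probe sets, lists and medians use the brightest.

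The label check came out as the names say. Kdm7a probe set 1456150_at had signals of 130.3 and 136 in KDM7 knockdown lines 1 and 2, against 665 in the EGFP knockdown, 611 in the empty vector and 487 in the parental line. This was a log2 difference of -2.13 (SE 0.20, adjusted p = 0.0468 in limma). The call lay close to the threshold. Limma called 0 of all probe sets with cyclic loess scaling, a log offset of 32, no trend and robust options, or the EGFP knockdown array left out. The Kdm7a call was thus lost in those alternatives. Kdm7a probe sets 1435867_at, the brightest, and 1427359_at were also below all controls in both knockdown lines, but limma did not call them. Their differences were -1.99 (SE 0.25, adjusted p = 0.128 in limma) and -1.86 (SE 0.40, adjusted p = 0.869). With these arrays a difference of that size could thus go uncalled. The neuroblastoma and neuronal markers passed the filter for 14 of 17 measured genes, with Th, Nefl and Nefm under it, and their summed signal was 67375 to 76223 in the knockdown lines and 67206 to 72471 in the control lines. The sum is carried by its brightest genes. By gene, the median knockdown difference of the 14 markers was -0.20 on the log2 scale, with 10 of 14 negative, 4 of 14 (28.6%) below every control, against 10.2% of all genes, and 0 of 26 probe sets called by limma. Isl1, a transcription factor of sympathetic neurons, had 316 and 466 in knockdown lines 1 and 2, against 1998, 545 and 1493 in the EGFP knockdown, empty vector and parental lines. Gata3, another such factor, had 178 and 95.3, against 585, 224 and 554. The part of this marker difference in the results below was not tested. Of markers of other cell types, 1 of 10 measured blood genes, 0 of 8 endothelial, 2 of 6 epithelial, 1 of 6 glial and 3 of 11 fibroblast genes passed. The summed fibroblast signal was 226 to 352 in the 4 lines with a vector and 2985 in the parental line, nearly all of it from Acta2 (2733). Col1a2 (46.0) and Pdgfra (73.5), which also passed, lay in the parental line within the range of the other lines. The sum is thus a difference of Acta2 and does not show fibroblasts. The part of this Acta2 difference in those below was not tested. The 3'/5' ratio of the array's Gapdh controls, a sign of RNA quality, was 0.814 to 0.831 over the 5 arrays. That of the actin controls was 1.35 to 1.43 in the 4 lines with a vector and 1.25 in the parental line. The highest correlation of an array with any other was 0.978 to 0.983 for the 4 lines with a vector and 0.968 for the parental line, and the median signal was 44 to 49.2 in the 4 lines with a vector and 41.3 in the parental line. The part of these array differences in the comparison with the parental line was not tested.

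Knockdown of KDM7 gave no call among the glycolysis and hypoxia genes. In the comparison of the 2 knockdown lines with the 3 control lines limma called 0 of 58 probe sets, where the share over all probe sets was 0.00888% (2 of 22519). At an unadjusted p under 0.05 it found 4 of 58 (6.9%), against 4.96% of all probe sets, and limma without its trend and robust options also called 0. The median log2 difference over the 31 genes was 0.12, beside 0.03 over all 10867 genes taken the same way, with 21 genes positive and 10 negative. The knockdown pair had higher signals than the 3 controls without overlap in 13 of 58 probe sets (22.4%), a pattern that 12.6% of all probe sets showed. They were lower than the 3 controls without overlap in 4 of 58 (6.9%), against 10.2% of all. In a bulk array a change in the number of RNA-rich cells and a change of RNA per cell cannot be told apart.

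The lines with a vector stood apart from the parental line more than the knockdowns did from the controls, as far as calls go. This second comparison sets the 4 lines with a vector, knockdowns included, against the 1 parental array, which is assumed to vary like the others. It shares all arrays with the knockdown comparison, but the errors differ. Here the spread within groups comes from the 4 lines with a vector only. In the knockdown comparison the parental array adds to the spread of the controls, so the call counts are not on equal terms. Limma called 342 of 22519 probe sets (1.52%), and 5 of the 58 probe sets of the glycolysis and hypoxia genes (8.62%). At an unadjusted p under 0.05 it found 19 of 58 (32.8%), against 16.6% of all. All 5 were higher in the lines with a vector, where the share over all probe sets was 0.848%, and 0 were lower, where it was 0.671%. They belong to Aldoc, Slc16a3, Hk2 and Tpi1, described below with their values. The 4 lines lay above the parental line in 20 of 58 probe sets (34.5%, against 31.5% of all) and below it in 16 (27.6%, against 23%), and the median over the 31 genes was 0.08, beside 0.04 over all genes. The calls depended on the error model: without limma's trend and robust options 28 of 22519 probe sets passed and 0 of the 58.

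**Figure D1:**
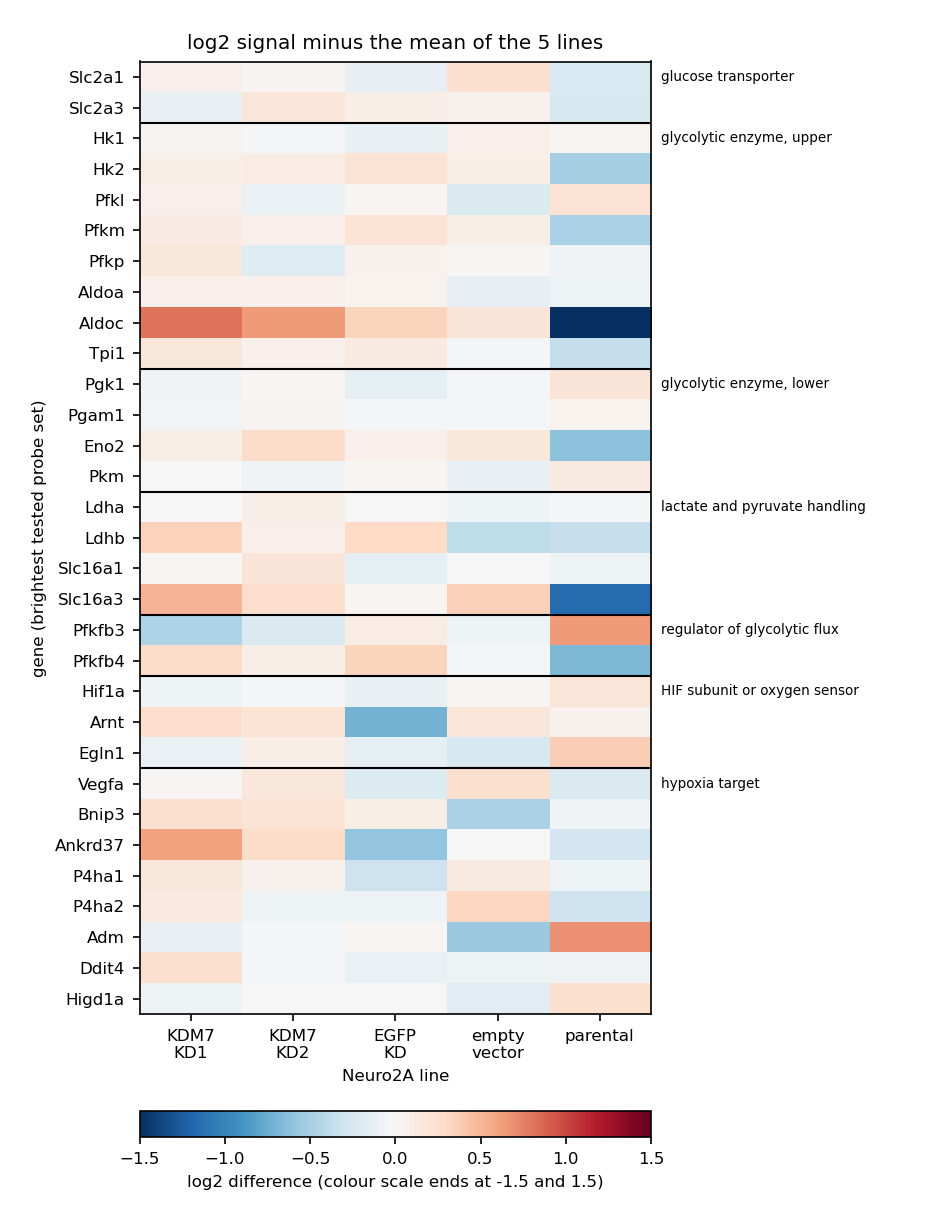
Heat map of the 31 tested genes (rows, brightest tested probe set, grouped by role) in the 5 lines (columns, KDM7 knockdown lines first, parental last), with colour giving the log2 signal minus the mean of the 5 lines. The parental column holds the deepest blue cells, at Aldoc and Slc16a3, and also red cells such as Adm and Pfkfb3, while the 2 knockdown columns are red at Aldoc, Ankrd37 and Slc16a3 and blue at Pfkfb3.

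The promoters of the genes that passed in the second comparison are shown here with that of Ankrd37, the gene with the lowest unadjusted p for the knockdown, because the hypoxia response element is the best known control sequence of this gene set. Each line gives the 250 bases before the annotated start of transcription, 5′ to 3′ on the gene's strand, from RefSeq (GRCm38.p6). Capitals mark the core letters ACGTG and GCGTG of that element, or their reverse complements CACGT and CACGC, and matches can overlap. The Aldoc stretch is chr11:78322823-78323072 (plus strand), Slc16a3 chr11:120948817-120949066 (plus), Hk2 chr6:82774455-82774704 (minus), Tpi1 chr6:124814159-124814408 (minus) and Ankrd37 chr8:45999851-46000100 (minus).
Aldoc: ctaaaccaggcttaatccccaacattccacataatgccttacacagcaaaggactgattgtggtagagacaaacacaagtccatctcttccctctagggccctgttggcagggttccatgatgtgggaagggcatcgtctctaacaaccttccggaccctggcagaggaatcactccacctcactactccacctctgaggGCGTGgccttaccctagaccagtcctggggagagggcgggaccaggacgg
Slc16a3: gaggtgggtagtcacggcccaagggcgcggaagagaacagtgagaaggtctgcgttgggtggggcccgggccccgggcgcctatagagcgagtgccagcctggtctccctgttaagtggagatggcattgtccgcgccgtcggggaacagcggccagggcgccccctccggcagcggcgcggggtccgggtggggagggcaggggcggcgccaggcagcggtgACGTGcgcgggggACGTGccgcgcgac
Hk2: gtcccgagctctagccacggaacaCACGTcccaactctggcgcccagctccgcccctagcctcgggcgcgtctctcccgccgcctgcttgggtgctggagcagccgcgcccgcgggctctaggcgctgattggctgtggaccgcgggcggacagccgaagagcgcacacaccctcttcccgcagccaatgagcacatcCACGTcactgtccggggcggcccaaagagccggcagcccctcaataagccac
Tpi1: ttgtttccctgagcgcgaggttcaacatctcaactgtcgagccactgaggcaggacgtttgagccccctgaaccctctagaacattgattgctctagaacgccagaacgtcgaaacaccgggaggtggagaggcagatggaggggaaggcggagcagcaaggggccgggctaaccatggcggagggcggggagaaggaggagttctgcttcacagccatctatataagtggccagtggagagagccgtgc
Ankrd37: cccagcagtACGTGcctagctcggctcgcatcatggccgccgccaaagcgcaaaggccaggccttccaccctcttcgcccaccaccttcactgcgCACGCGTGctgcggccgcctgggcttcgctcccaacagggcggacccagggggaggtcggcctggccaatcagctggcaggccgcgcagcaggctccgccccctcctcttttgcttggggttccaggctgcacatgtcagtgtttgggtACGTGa
Searched on both strands, these stretches hold 1 match in Aldoc, 2 in Slc16a3, 2 in Hk2, 0 in Tpi1 and 4 in Ankrd37. Aldoc has a second annotated start, whose stretch (chr11:78323948-78324197, plus strand) is not printed and holds 1 match, CACGC at -39. In Slc16a3 both matches are ACGTG and lie near the start, at positions -27 and -14, while in Hk2 both are CACGT, at -226 and -52. Over the windows of 300 bases that RefSeq starts give (250 before and 50 after), 36 of the 40 genes had an entry, with 50 windows. These are not the same 36 as the measured genes: Gpi1, Eno1 and Gapdh had a window, and Slc2a3, Ndrg1, Epas1 and Bnip3l had none. At least 1 match was found in 41 of these 50 (82.0%), against 43.8% of all 32851 mouse windows and 49.3% of the 21263 windows of protein-coding genes. ACGTG alone was in 56.0% of the windows of the glycolysis and hypoxia genes and in 19.6% of all, and GCGTG in 60.0% and 32.4%. Hypoxia response genes were picked for the list, so these higher shares are not a finding of these data. Windows of the same gene can overlap, as in Aldoa, Eno1 and Pfkm, so the same match can count more than once. The windows were not matched for base composition, a match is a description and not a bound site, and the calls were found with and without one: Aldoc, Slc16a3 and Hk2 hold matches and Tpi1 holds none.

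The 2 glucose transporters showed small differences between the KDM7 knockdown and the controls at their brightest probe sets. For Slc2a1 (GLUT1), the widespread basal glucose transporter, probe set 1434773_a_at had 1429 and 1394 in knockdown lines 1 and 2, against 1243 in the EGFP knockdown, 1597 in the empty vector and 1155 in the parental line. The knockdown values lay inside the range of the controls, with a log2 difference of 0.10 (SE 0.17), and the other 2 tested Slc2a1 probe sets gave 0.10 and 0.07. For Slc2a3 (GLUT3), the high-affinity transporter of neurons, probe set 1437052_s_at had 6799 and 8312 in the knockdown lines, against 7796, 7676 and 6202 in the EGFP knockdown, empty vector and parental lines. Here too the groups overlapped (log2 difference 0.07, SE 0.13). The other tested Slc2a3 probe sets differed from this. The dim 1421924_at gave 0.39 (SE 0.36), with both knockdown lines above all controls. At 1455898_x_at the difference was -0.13 (SE 0.18), with the knockdown lines on either side of all controls. For both genes the parental line was the lowest of the 5 at the brightest probe set, and the 4 lines with a vector were higher by 0.29 for Slc2a1 and 0.30 for Slc2a3 on the log2 scale, neither past the threshold (adjusted p = 0.447 and 0.255 in limma).

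Among enzymes of the upper, glucose-splitting steps, Aldoc showed the largest difference of the 31 genes in both comparisons. Aldoc, the brain form of aldolase, had signals of 736 and 649 in KDM7 knockdown lines 1 and 2, against 525 in the EGFP knockdown, 476 in the empty vector and 106 in the parental line. Both knockdown lines were above all controls, but the controls were themselves spread widely, with the parental line far below the rest. The mean was 693 ± 61.1 in the knockdown lines (SD, n = 2) and 369 ± 229 in the control lines (SD, n = 3). The log2 difference was 1.21 (SE 0.71, adjusted p = 0.916 in limma), and it came to 0.47 when the parental array was left out, where the adjusted p was still over the threshold. Against the parental line, Aldoc was higher in 4 of 4 lines with a vector, by 2.47 on the log2 scale or 5.56-fold (SE 0.26, adjusted p = 0.0116 in limma). This call held when any of the 4 lines was left out (adjusted p from 0.00639 to 0.0207) and when both knockdown lines were left out (2.24, adjusted p = 0.0257). The second Aldoc probe set, 1424714_at, stayed under the filter, with 3.7 to 17.8 over the 5 lines.

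Hk2, a hexokinase that traps glucose in the cell and is a known HIF target, had 3743 and 3789.8 in KDM7 knockdown lines 1 and 2, against 4058, 3738 and 2479.6 in the EGFP knockdown, empty vector and parental lines. The 4 lines with a vector lay close together and the parental line lay well below them, so that knockdown and controls overlapped (log2 difference 0.17, SE 0.20). The 4 lines were higher than the parental line by 0.63, or 1.54-fold (SE 0.12, adjusted p = 0.0438 in limma). Of the 4 fits that left out 1 line with a vector, the one without the EGFP knockdown kept the call (adjusted p = 0.0304), and those without the empty vector (0.0657), knockdown line 1 (0.112) or knockdown line 2 (0.0890) did not. Hk1, the housekeeping hexokinase, differed little at its brighter probe set 1437974_a_at, with 2932 and 2776 in the knockdown lines and 2633 to 2999 in the controls.

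Tpi1, triose phosphate isomerase, was covered by 3 tested probe sets that behaved alike. At 1435659_a_at the signals were 10438 and 9699 in KDM7 knockdown lines 1 and 2, against 9833, 9812 and 6642 in the EGFP knockdown, empty vector and parental lines. Only the parental value stood apart at this probe set, and the knockdown difference of 0.22 (SE 0.17) did not pass. The 4 lines with a vector were higher than the parental line by 0.58, or 1.5-fold (SE 0.09, adjusted p = 0.0316 in limma). At 1415918_a_at the difference was 0.45 (SE 0.09, adjusted p = 0.0465), and at the brightest, 1452927_x_at, it was 0.45 as well but missed the threshold (adjusted p = 0.0534). At the first 2 of these probe sets the call held without the empty vector or the EGFP knockdown, and was lost without knockdown line 1 (adjusted p = 0.0820 and 0.123) or line 2 (0.0589 and 0.0958).

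The phosphofructokinases, which catalyse the committed step, did not move as one. Pfkm, the muscle form, had 1669 and 1611 in KDM7 knockdown lines 1 and 2, against 1772, 1627 and 1092 in the EGFP knockdown, empty vector and parental lines. The parental line was lowest, and the difference of the lines with a vector from it (0.61, adjusted p = 0.0780 in limma) did not pass. Pfkl, the liver form, had its highest value in the parental line at 1439148_a_at, with 834 and 737 in the knockdown lines, against 804, 683 and 916 in the EGFP knockdown, empty vector and parental lines, and neither comparison passed. Pfkp, the platelet form, had 6078 in knockdown line 1 and 4781 in line 2 at 1416069_at, against 5217 to 5648 in the controls. Its knockdown lines thus lay on either side of all controls. The 5 tested probe sets of Aldoa, the widespread aldolase, gave knockdown differences of 0.01 to 0.16, and at the brightest, 1416921_x_at, the knockdown lines had 19568 and 19676, against 19405, 17079 and 17619.5 in the EGFP knockdown, empty vector and parental lines.

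**Figure D2:**
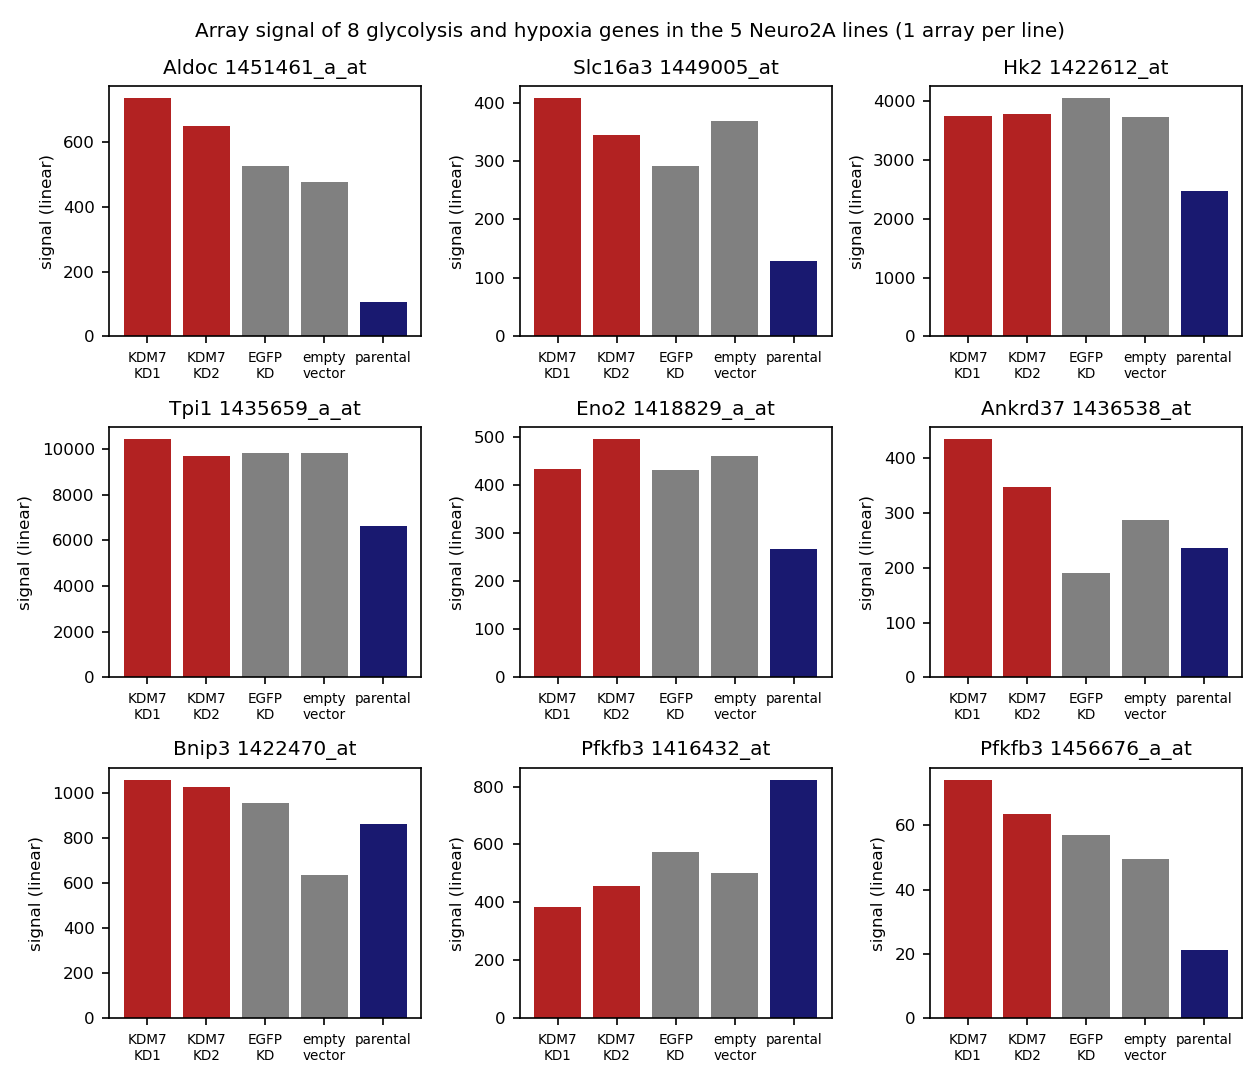
Bar plots of the array signal (y axis, linear arbitrary units from 0) of 9 probe sets of 8 genes in the 5 lines (x axis, KDM7 knockdown lines in red, EGFP knockdown and empty vector in grey, parental in dark blue), 1 array per bar. The parental bar is the lowest for Aldoc, Slc16a3, Hk2, Tpi1 and Eno2, the EGFP knockdown bar is the lowest for Ankrd37, and the 2 Pfkfb3 probe sets run in opposite directions. Pfkfb3 1456676_a_at is dim.

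The enzymes of the lower steps, which turn triose into pyruvate, had a median knockdown difference of -0.01 over 4 genes. Pgk1, phosphoglycerate kinase, had 8445 and 8916 at 1438640_x_at in KDM7 knockdown lines 1 and 2, against 7976, 8566 and 10054 in the EGFP knockdown, empty vector and parental lines. Pkm, pyruvate kinase, had 5157 and 4974, against 5251, 4775 and 5644 in the same order of controls. Pgam1, phosphoglycerate mutase, had 9744 and 10332, against 9819.6, 9954 and 10439.9. In all 3 genes the parental line was the highest of the 5 and the groups overlapped, and log2 differences of the knockdown from the controls were within 0.05 of 0. Eno2, the neuronal enolase, went the other way, with 433 and 496 in the knockdown lines, against 431, 461 and 267 in the EGFP knockdown, empty vector and parental lines. Its parental value was the lowest, and the lines with a vector differed from it by 0.77 (SE 0.20, adjusted p = 0.0961 in limma), which did not pass. The knockdown difference of Eno2 was 0.30 (SE 0.26) with the parental array and 0.06 without it.

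For the handling of lactate and pyruvate, the 4 tested genes all had positive knockdown differences, with a median of 0.27, and none passed. Slc16a3, the lactate exporter MCT4 and a HIF target, had 408 and 344 in KDM7 knockdown lines 1 and 2, against 292, 368 and 129 in the EGFP knockdown, empty vector and parental lines. The knockdown lines overlapped the empty vector, and the parental line was far below all others. The mean was 376 ± 45 in the knockdown lines (SD, n = 2) and 263 ± 122 in the control lines (SD, n = 3), and the log2 difference of 0.64 (SE 0.41, adjusted p = 0.916 in limma) came to 0.19 without the parental array. Against the parental line, Slc16a3 was higher in 4 of 4 lines with a vector, by 1.44 or 2.71-fold (SE 0.24, adjusted p = 0.0346 in limma). This call held without the EGFP knockdown (adjusted p = 0.0186) and was lost without the empty vector (0.0626), knockdown line 1 (0.0820) or knockdown line 2 (0.0592).

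Ldha, the lactate dehydrogenase subunit that favours lactate, had 17170.5 and 18188 in KDM7 knockdown lines 1 and 2, against 17097, 16346 and 16942 in the EGFP knockdown, empty vector and parental lines. Both knockdown lines were above all controls, by 0.07 (SE 0.07), a difference of 1.05-fold. Slc16a1, the basal monocarboxylate transporter MCT1, had 7606 and 8557, against 6808, 7474 and 7089, again without overlap, by 0.18 (SE 0.10, adjusted p = 0.916 in limma). Ldhb, the subunit common in heart, had 170.0 and 141, against 165, 103 and 106, and the groups overlapped. Pdk1, a HIF-induced kinase that inhibits pyruvate dehydrogenase and so keeps pyruvate from becoming acetyl-CoA, had 4 probe sets, all under the filter, with no single signal over 34.5.

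The 2 measured regulators of glycolytic flux make or remove fructose-2,6-bisphosphate, the activator of phosphofructokinase. Pfkfb3 was the lowest of the 31 genes in the knockdown comparison, with 385 and 456 at 1416432_at in KDM7 knockdown lines 1 and 2, against 573, 501 and 823 in the EGFP knockdown, empty vector and parental lines. Both knockdown lines were below all controls (log2 difference -0.56, SE 0.23, unadjusted p = 0.0420 and adjusted p = 0.916 in limma), and the difference came to -0.35 without the parental array. Its second tested probe set, 1456676_a_at, went the opposite way, with 74.1 and 63.5 in the knockdown lines, against 56.9, 49.4 and 21.4 in the EGFP knockdown, empty vector and parental lines. There both knockdown lines were above all controls (0.81, SE 0.49). This probe set is dim, with a parental signal under the filter signal of 40.5. The filter takes the mean over all 5 lines, so the high knockdown values helped it to pass. The tested probe sets thus differed in direction, but not at like signal levels. Pfkfb4, a HIF-induced relative, had 229 and 200.2 in the knockdown lines, against 238, 187 and 118 in the EGFP knockdown, empty vector and parental lines. Its difference from the parental line (0.85, adjusted p = 0.142 in limma) did not pass.

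Of the HIF subunits and oxygen sensors, 3 of 5 genes were bright enough to test. Hif1a, the oxygen-regulated alpha subunit, had 6660.5 and 6902 at its brightest probe set 1427418_a_at in KDM7 knockdown lines 1 and 2, against 6470.4, 7034 and 7895 in the EGFP knockdown, empty vector and parental lines. The knockdown values lay inside the range of the controls (-0.07, SE 0.11). A dimmer Hif1a probe set, 1448183_a_at, had 142 and 112, against 156, 198 and 223, below all controls in both knockdown lines (-0.59, unadjusted p = 0.0486 and adjusted p = 0.916 in limma), while 1416035_at gave 0.03. HIF activity is set mostly at the protein level, which the array does not measure. Arnt, the partner subunit, had 339 and 325 at 1437042_at in the knockdown lines, against 173, 320.4 and 295 in the EGFP knockdown, empty vector and parental lines. The EGFP knockdown was the low value, and without it the difference of 0.39 (SE 0.28) came to 0.11. A second Arnt probe set, 1421721_a_at, lay in the knockdown lines under the range of the controls (55.2 and 46.9, against 101, 70.3 and 68.2). Egln1, the main prolyl hydroxylase, had 1291 and 1479, against 1259, 1175 and 1794, with the parental line highest. Epas1 (HIF-2 alpha) and Egln3, a hydroxylase that HIF induces, were under the filter, with no signal over 35.8 at any of their probe sets.

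Among hypoxia targets, Ankrd37, a small ankyrin-repeat protein induced by HIF, gave the lowest unadjusted p of the set. It had 436 and 349 in KDM7 knockdown lines 1 and 2, against 191, 287 and 236 in the EGFP knockdown, empty vector and parental lines. Both knockdown lines were above all controls, and the parental line lay between the other controls. The mean was 392 ± 61.5 in the knockdown lines (SD, n = 2) and 238 ± 48.1 in the control lines (SD, n = 3), a log2 difference of 0.73 or 1.66-fold (SE 0.23, unadjusted p = 0.0132). It did not pass after adjustment (adjusted p = 0.916 in limma), and it ranged from 0.57 to 0.89 over the alternatives run, with adjusted p from 0.529 to 1.00.

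Bnip3, a mitophagy receptor and HIF target, had 1058 and 1029 in KDM7 knockdown lines 1 and 2, against 956, 637 and 864 in the EGFP knockdown, empty vector and parental lines. Both were above all controls (0.37, SE 0.20, adjusted p = 0.916 in limma), and without the empty vector the difference came to 0.20. Ddit4 (REDD1), an inhibitor of mTORC1 signalling, had 5005 in line 1 and 4184 in line 2, against 3949.8, 3999 and 4064. Its knockdown values were above all controls, with line 2 close to them. Vegfa, the angiogenic growth factor, had 784 and 875 at 1420909_at, against 672, 921 and 667, with overlap. The collagen prolyl hydroxylase subunits also overlapped: P4ha1 had 707 and 656 at 1452094_at, against 507, 688 and 599, and P4ha2 had 1960.0 and 1686, against 1681, 2206 and 1432.

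At their tested probe sets Higd1a and Adm were lower in the lines with a vector than in the parental line, without a call. Higd1a, a mitochondrial protein of the hypoxia response, had 4196 and 4443 at its brightest probe set 1416480_a_at in KDM7 knockdown lines 1 and 2, against 4433, 3973 and 5219.9 in the EGFP knockdown, empty vector and parental lines. At 1416481_s_at it had 283 and 308, against 382, 469 and 731, below all controls in both knockdown lines (-0.78, SE 0.27, unadjusted p = 0.0193 and adjusted p = 0.916 in limma). The parental value was the highest at all 3 tested Higd1a probe sets. Adm, adrenomedullin, a vasodilator peptide, had 42.7 and 45.1 at 1447839_x_at, against 47, 31.3 and 74.2, close to the filter. With the parental array left out, where its signal is highest, Adm did not pass the filter. Its difference from the parental line thus rests on a probe set kept through that array. Its other probe set, 1416077_at, stayed under the filter and did not show the parental line highest. There the knockdown lines had 25.7 and 11.7, against 68.9, 41.9 and 31.6 in the EGFP knockdown, empty vector and parental lines. Car9, a carbonic anhydrase often used as a hypoxia marker, and Ndrg1 stayed under the filter at every probe set, with no signal over 33.6 for Car9 and 48.2 for Ndrg1, so these lines gave no testable level of 2 common hypoxia markers.

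**Figure D3:**
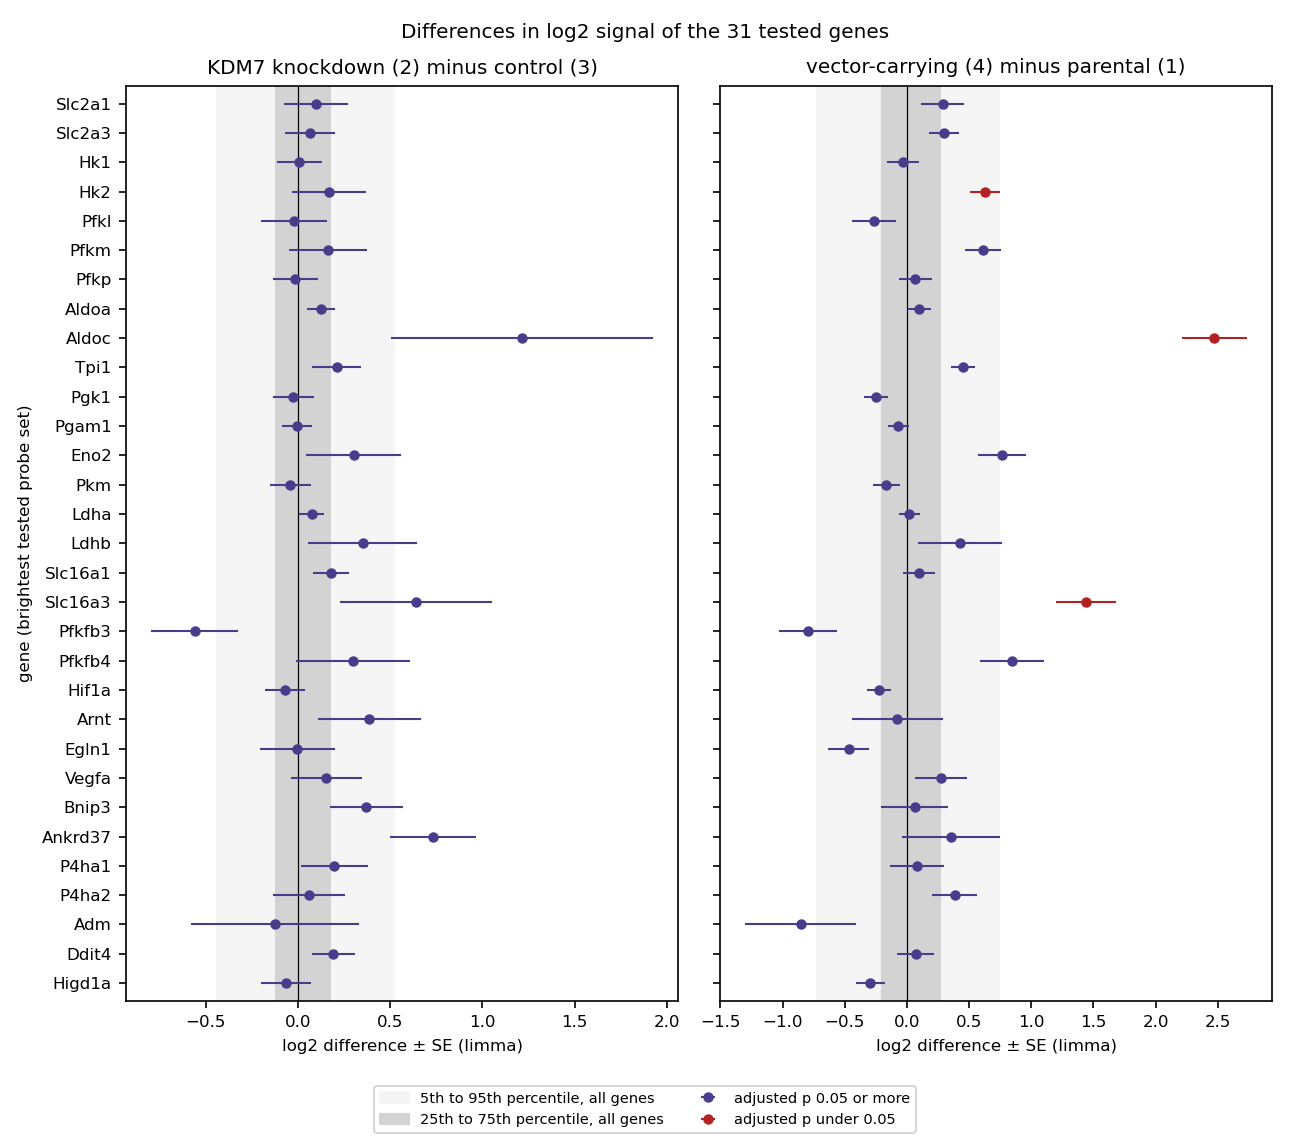
Log2 differences (x axis) of the 31 tested genes at their brightest probe set (y axis), with limma's SE as bars, for KDM7 knockdown minus control (left) and lines with a vector minus parental (right), red where the adjusted p was under 0.05. Light grey spans the 5th to 95th percentile of all genes and dark grey the 25th to 75th: on the left Aldoc, Ankrd37 and Slc16a3 lie above and Pfkfb3 below the light span, on the right Aldoc, Eno2, Pfkfb4 and Slc16a3 lie above and Adm and Pfkfb3 below. Adm is close to the brightness filter.

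Each knockdown line was also set against the 3 controls on its own, and the lines against each other. Limma called 0 of the 58 probe sets for line 1 (0% of all probe sets), 0 for line 2 (0.00444% of all) and 0 for line 2 minus line 1 (0.00444% of all). At an unadjusted p under 0.05 the counts were 1 of 58 for line 1 (1.99% of all), 0 for line 2 (2.77% of all) and 1 for the difference of the lines (1.51% of all), and limma without trend and robust called 0 in each. The median over the 31 genes was 0.12 in line 1 (0.02 over all genes) and 0.13 in line 2 (0.04 over all genes), and -0.04 for line 2 minus line 1. The 2 lines share their controls, so their likeness is not evidence of its own. For line 2 minus line 1 the most positive genes were Slc2a3 (0.29), Pfkfb3 (0.24) and Eno2 (0.20), the most negative Pfkp (-0.35), Ankrd37 (-0.32) and Ldhb (-0.27), and all 31 lay between the 5th and 95th percentile of all genes, which were -0.51 and 0.54.

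Ranked within each gene, KDM7 knockdown line 1 was the highest of the 5 lines in 10 of 31 genes (32.3%, against 14.6% of all genes) and line 2 in 5 (16.1%, against 19.5%). The EGFP knockdown was the highest in 3 (9.68%, against 22.2%), the empty vector in 4 (12.9%, against 19.1%) and the parental line in 9 (29.0%, against 24.6%). Line 1 thus lay above its share over all genes and line 2 below it. The lowest value belonged to knockdown line 1 in 2 genes (6.45%, against 15.3% of all) and to line 2 in 1 (3.23%, against 13.7%). It belonged to the EGFP knockdown in 8 (25.8%, against 20.5%), the empty vector in 9 (29.0%, against 19.5%) and the parental line in 11 (35.5%, against 31.1%). These counts were not tested.

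Probe sets of the same gene often disagreed. Of 15 genes with more than 1 tested probe set, 10 had knockdown differences of both signs, and in 5 the probe sets spanned more than 0.5 on the log2 scale. The widest span was that of Pfkfb3 (-0.56 and 0.81), followed by Arnt (-0.62 to 0.39), Higd1a (-0.78 to -0.06), Hif1a (-0.59 to 0.03) and Slc2a3 (-0.13 to 0.39). The value of 0.81 for Pfkfb3 comes from a dim probe set. Tpi1 (0.18 to 0.22), Slc2a1 (0.07 to 0.10) and Aldoa (0.01 to 0.16) were narrow. Probe sets whose name ends in _s_at or _x_at can share probes with other transcripts. Such a name stands at 1 end of the spans of Higd1a and Slc2a3 and at neither end for Pfkfb3, Arnt and Hif1a. All 5 tested Aldoa probe sets have one. Whether shared probes or different transcript ends play a part in the spans was not tested.

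**Figure D4:**
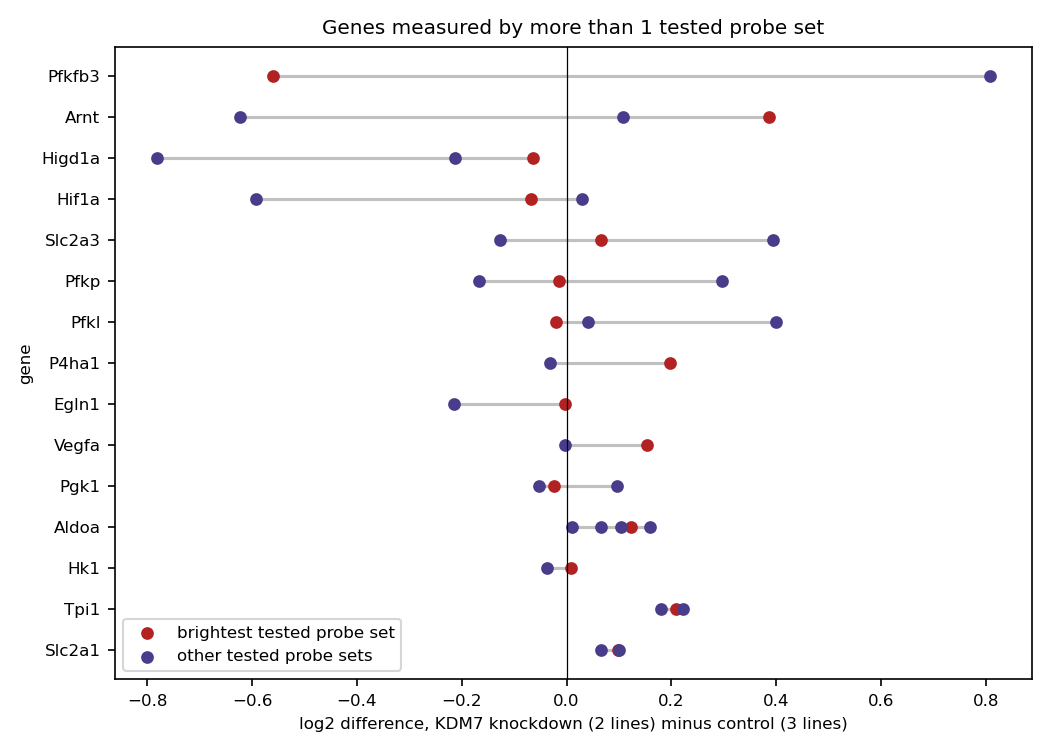
Log2 difference of KDM7 knockdown minus control (x axis) for each tested probe set of the 15 genes with more than 1 (y axis, widest span at the top), with the brightest probe set in red, the others in dark blue and a grey line over their span. Pfkfb3 and Arnt reach from clearly negative to clearly positive values, while the points of Tpi1 and Slc2a1 nearly coincide.

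Other genes of the same pathways were described from separate lists. Of 43 further genes of glycolysis and glucose carbon use, 38 were measured and 26 passed the filter, with 47 probe sets, and limma called 0 of them for the KDM7 knockdown, with a median of 0.02 over the genes. The largest positive difference was that of Slc2a4, the insulin-responsive transporter GLUT4, with 98.1 and 64.4 in knockdown lines 1 and 2, against 21, 34.1 and 42.7 in the EGFP knockdown, empty vector and parental lines (1.35, adjusted p = 0.916). Slc2a4 is dim, and its EGFP knockdown and empty vector signals lie under the filter signal of 40.5. It passed the filter through its high knockdown values, so this difference is near the floor. Pdp2 (0.48) and Ldhd (0.42) followed, and Dld (-0.24), Pdha1 (-0.19) and Tigar (-0.17) were the most negative. Between the lines with a vector and the parental line 1 of the 47 probe sets rose (2.13%, against 0.848% of all probe sets) and 1 fell (2.13%, against 0.671%). Got1, an aminotransferase of the malate-aspartate shuttle, had 3573, 3459, 3632 and 3627 in knockdown line 1, line 2, the EGFP knockdown and the empty vector, against 1917 in the parental line (0.90, adjusted p = 0.0169 in limma). Pdha1, a subunit of pyruvate dehydrogenase, had 3506, 3437, 3339 and 3359.7 in the same lines, against 5546 in the parental line (-0.70, adjusted p = 0.0331 in limma).

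Of 60 further hypoxia response genes, 54 were measured and 36 passed the filter, with 64 probe sets. For the KDM7 knockdown limma called 0 of them and the median was 0.10. The most positive were Car12 (0.83), Pygl (0.66) and Rbx1 (0.47), the most negative Tgfb3 (-0.44), Plod1 (-0.37) and Stbd1 (-0.27). Pygl, liver glycogen phosphorylase, had 1172 and 1161 in knockdown lines 1 and 2, against 759, 1025 and 522 in the EGFP knockdown, empty vector and parental lines, without overlap. In the comparison with the parental line 2 of the 64 probe sets rose (3.13%, against 0.848% of all) and 0 fell (0.671% of all). Bhlhe40, a transcriptional repressor induced by HIF, had 684, 731, 685 and 700.0 in knockdown line 1, line 2, the EGFP knockdown and the empty vector, against 279 in the parental line (1.33, adjusted p = 0.0166 in limma). Ak4, a mitochondrial adenylate kinase, had 688, 604, 564 and 454 at 1421830_at, against 241 in the parental line (1.24, adjusted p = 0.0457 in limma), while its brighter probe set 1450387_s_at gave 0.87 and did not pass (adjusted p = 0.0884). Nrn1 (-1.05), Stbd1 (-0.82) and Tgfb3 (-0.82) were the most negative, and none of them passed.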

How the data were processed

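Per the submitters' processing notes, the authors used MAS5, and what they deposited are linear signal intensities, 1 per probe set and array. The sources used here do not give its version. Per the labels' protocols, total RNA was labelled as biotin cRNA with a 3' kit, and no file gives detection calls. The 5 arrays share a 2% trimmed mean of 500.0, which is a scaling already in the deposited values, and no further normalization was done. Correlations between arrays were 0.964 to 0.983, lowest for the parental array.

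Of 45101 probe sets, 64 array controls were left out. The log2 of each signal was taken without an offset, and limma 3.58.1 (R 4.3.3; lmFit, eBayes with trend and robust) was fitted to all 22519 probe sets at or above the median brightness, with no covariate, since the labels give no batch. The fit of knockdown against control had 3 residual degrees of freedom. Line 1, line 2 and control were fitted as 3 groups, with the spread taken from the controls. The scripts were tested on simulated data.

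The genes, their roles and the other lists were chosen with earlier results of these data known. Named genes were the 8 with the largest difference each way for the knockdown, the 3 each way for line 2 against line 1 and for the parental comparison, and the 3 each way per further list. The remaining genes were given by role. The additional probe sets of Kdm7a, Slc2a3, Pfkfb3, Arnt, Hif1a, Higd1a and Adm were chosen after their values were seen. So were those called in the parental comparison. The number of arrays limits the precision.

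The alternatives changed the scaling (median centring, cyclic loess or quantile), the filter (70th percentile or none), the log offset (32), the summary per gene (brightest probe set or mean), the error model (array weights, or no trend and robust), the threshold (0.10) and the arrays (each left out in turn). A comparison of the parental line with the other 2 controls alone, and the medians and separation counts for the parental line, were added after seeing the data.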

Additional observations from a re-analysis of the deposited data

Results flagged for a closer look

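In 4 of 58 probe sets (6.9%, against 4.73% of all tested) the KDM7 knockdown lines lay on opposite sides of all 3 controls. The difference, line 2 minus line 1 on the log2 scale, was 0.57 for Slc2a3 1455898_x_at (2962 in line 1, 4389 in line 2), -0.72 for Hk1 1420901_a_at (377 and 228), -0.31 for Pfkl 1450269_a_at (550.3 and 445) and -0.35 for Pfkp 1416069_at (6078 and 4781). Limma's test of the difference between the lines gave an adjusted p of 1.00 for each, and each line is 1 array.

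In 8 of 58 probe sets 1 of the 4 lines with a vector stood apart from the other 3, with a gap to its nearest neighbour, as a share of the whole range of the 4, above Dixon's 95% critical value. The shares follow each name in parentheses. That is 13.8%, against 5.95% of all 22519 probe sets, and chance gives about 1 in 20. The EGFP knockdown was the lowest in Pgk1 1417864_at (0.996), Pgk1 1439435_x_at (0.881) and Arnt 1437042_at (0.915) and the highest in Hk2 1422612_at (0.834). The empty vector was the lowest in Aldoa 1416921_x_at (0.902) and Aldoa 1439375_x_at (0.864). KDM7 knockdown line 2 was the lowest in Pfkp 1430634_a_at (0.917) and line 1 in Slc2a3 1455898_x_at (0.856). In Pgk1 1417864_at the other 3 lines were nearly equal (7942, 7938 and 7938, against 7209.7 in the EGFP knockdown).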

How the results depend on the processing

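The count of 0 probe sets called for the KDM7 knockdown, for line 1, for line 2 and for their difference was the same in every alternative run. The knockdown median of 0.12 came to 0.014 under median centring, which moved the median of all genes to -0.08, so that the difference from all genes kept the value 0.10. Leaving out 1 array gave 0.071 to 0.20. The 13 probe sets with both knockdown lines above every control became 8 with 1 probe set per gene (25.8%, against 12.7% of all), 6 under median centring (10.3%, against 6.02%) and 16 to 21 with 1 array left out (28.1% to 35.6%, against 18.5% to 24.4%). The 4 below every control became 1 with 1 probe set per gene (3.23%, against 10.2% of all), 2 with the filter at the 70th percentile (4.44%, against 11.1%) and 6 to 8 with 1 array left out (10.3% to 13.6%, against 16.6% to 20.9%). With no filter they became 9, and the share of 11.0% then lay above the 8.97% of all. No paired analysis was possible because the control lines carry no replicate numbers in the labels.

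The 5 calls against the parental line became 3 with 1 probe set per gene, 8 at an adjusted p under 0.10, 0 without trend and robust, 3 with the filter at the 70th percentile, 2 under median centring, 3 with no filter, 1 when the knockdown lines were left out and 1 to 6 with 1 array left out. Counts of 1 came without knockdown line 1 and without line 2. Of 13 alternatives, Aldoc passed in 12, Slc16a3 in 8, Tpi1 1435659_a_at in 8, Tpi1 1415918_a_at in 5 and Hk2 in 5. The median against the parental line, 0.08, turned to -0.11 under median centring (all genes -0.15) and to -0.015 with the knockdown lines left out, and was 0.029 to 0.15 with 1 array left out. The 20 probe sets above the parental line became 11 with 1 probe set per gene (35.5%, against 31.1% of all) and 13 under median centring (22.4%, against 16.1%), and the 16 below became 9 (29.0%, against 24.6%) and 25 (43.1%, against 40.6%). Tests that leave a group with 1 array assume that it varies like the others. The number of calls over all probe sets also changed with the setting, so a count for this gene set alone does not show its share. Under median centring the calls over all probe sets rose, while those of the glycolysis and hypoxia genes fell. Both rose at an adjusted p under 0.10, and both fell without trend and robust.

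Small knockdown differences turned sign in 12 cases of 204. With array weights Adm came to 0.022, Pfkl to 0.029 and Pgk1 to 0.0040. Without 1 array, named genes that turned ranged as follows: Hif1a -0.14 to 0.0073, Higd1a -0.16 to 0.041, Pkm -0.10 to 0.016, Pfkl -0.13 to 0.081, Pfkp -0.19 to 0.16 and Pgk1 -0.097 to 0.070. The cause was not tested.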
